A study of Homo sapiens with 6 samples.

Results

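The amino acid transporters described here are the protein-coding genes in the deposited count table whose symbols start with SLC1A, SLC3A, SLC6A, SLC7A, SLC36A, SLC38A or SLC43A. The rule picked 44 of 21494 genes by name and uses no measured value, but it was chosen with earlier results of these data known. RNA-seq was analysed for 6 samples labelled as G361, a human melanoma cell line, in 2 groups of 3. Control sh cells carried a control shRNA, and VprBP sh cells carried a lentiviral shRNA against VprBP, the product of DCAF1. According to the study's methods the knockdown was stable, with puromycin selection of infected cells, and the vector of the control shRNA is not given in the sources used here. VprBP is the substrate receptor of a Cul4 ubiquitin ligase and was studied here as a kinase of histone H2A, and the comparison addressed which genes change upon its depletion. The labels do not say whether the 3 samples of a group came from separate cultures, so the p-values measure only the spread between these samples, which may be technical.

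Amino acids cross membranes on carriers of several solute carrier families. The SLC7 light chains reach the cell surface joined to a heavy chain of the SLC3 family, and SLC7A5 with SLC3A2 forms the main route by which proliferating cells exchange glutamine for leucine and other large neutral amino acids. SLC1 proteins carry glutamate or small neutral amino acids with sodium, SLC6 proteins carry neurotransmitters and amino acids with sodium and chloride, and SLC38 proteins carry glutamine and alanine. SLC36 and SLC43 proteins complete the set with proton-coupled and facilitated transport. In cancer cells SLC7A5, SLC1A5 and SLC7A11 are known for supplying leucine, glutamine and cystine.

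The samples held 18195926 to 26883925 estimated counts each. The share of mitochondrial transcripts was 1.96% to 1.98% in Control sh against 4.10% to 4.48% in VprBP sh, and its part in the results was not tested. DCAF1 had 688, 893 and 884 counts in Control sh against 681, 488 and 628 in VprBP sh, or 869 ± 90.6 and 583 ± 154 normalized counts (scaled to a common library size by upper quartile factors, and given as mean ± SD of 3 here and below). The groups did not overlap, and the log2 fold change of -0.58 (SE 0.17, adjusted p = 0.0125 in edgeR's quasi-likelihood test with Benjamini-Hochberg adjustment over all genes) stayed under 2-fold. In each group replicates 2 and 3 lay closer to each other than to replicate 1, with a chi-square per degree of freedom over genes of 2.45 and 2.32 against 16.1 to 26.6. Among the 41 transporter genes tested, replicate 1 lay more than 1.5-fold from the mean of the others for 10 in Control sh and 13 in VprBP sh (24.4% and 31.7%, against 13.6% and 15.6% of all genes tested). In the labels the cell line is G361 while the source is LD611. Of 8 melanocyte markers 4 were in the count table, and TYR, DCT, SOX10 and S100B were not. Every gene in that table holds at least 10 counts over the 6 samples. MITF had 154 to 170 counts in Control sh against 197 to 312 in VprBP sh, and MLANA had 5 or fewer in every sample. The summed level of the 4 was 199 to 236 and 244 to 308 normalized counts. Of 19 urothelial and epithelial markers 17 were in the count table, all but KRT20 and UPK3A. Their summed level was 288945 to 306867 in Control sh against 105323 to 138753 in VprBP sh. KRT14 fell from 62464 to 86797 counts to 1 to 10, TP63 fell from 7670 to 8806 counts to 8 to 13, and GATA3 rose from 0 to 7 counts to 1334 to 1873. The means of KRT18, KRT19 (2.02-fold), PPARG, FOXA1 (4.06-fold) and EPCAM were also higher in VprBP sh, and those of all other markers in this list were lower. The summed levels were 755 to 803 against 457 to 602 normalized counts for fibroblast markers, most of it COL1A1 (691 ± 30.5 and 548 ± 80.8). The less abundant COL1A2, LUM and PDGFRB fell to 6 or fewer counts in every VprBP sh sample. Blood markers summed to 657 to 1051 against 1.12 to 11.5 (in Control sh almost all of it CD68). Endothelial markers summed to 618 to 687 against 29.03 to 39.1, where CDH5 and VWF fell and PECAM1 did not (20.1 ± 7.59 and 23.0 ± 7.35). Whether these marker shifts and the transporter changes go together was not tested, and in bulk samples fewer cells of a type and less RNA per cell cannot be told apart.

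Promoter windows are shown first for 4 of the transporter genes on which the results turn, since amino acid response genes are known to carry short elements near their starts. RefSeq (GRCh38.p14) gave 55 windows of 300 bases, from 250 before to 50 after a start, for 33 of the 44 genes. Each was searched on both strands for TGATGNAA (the composite C/EBP-ATF element through which ATF4 acts), CACGTG (the E-box bound by MYC and TFE3) and TGACNNNGC (the core of the antioxidant response element), where N is any base. The capitals below mark these matches, and the rest of each window is in lower case. SLC7A5 (chr16:87869458-87869757, minus strand) is shown for the largest loss in counts of any of the 44 genes, SLC3A2 (chr11:62881449-62881748, plus strand) as its heavy chain, and SLC7A1 (chr13:29595639-29595938, minus strand) as the arginine carrier that fell with them. SLC1A6 (chr19:15010594-15010893, minus strand) is shown as the glutamate carrier with the largest gain, and neither of its 2 windows holds any of the 3 elements. SLC3A2 has 3 windows in the table, of which the one printed is the one that holds TGATGNAA.
SLC7A5: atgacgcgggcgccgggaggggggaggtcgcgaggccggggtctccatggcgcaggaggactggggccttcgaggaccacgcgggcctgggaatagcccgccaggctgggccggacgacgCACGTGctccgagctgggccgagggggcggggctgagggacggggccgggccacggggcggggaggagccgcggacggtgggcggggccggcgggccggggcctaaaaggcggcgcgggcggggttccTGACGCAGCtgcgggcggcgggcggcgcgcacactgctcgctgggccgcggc
SLC3A2: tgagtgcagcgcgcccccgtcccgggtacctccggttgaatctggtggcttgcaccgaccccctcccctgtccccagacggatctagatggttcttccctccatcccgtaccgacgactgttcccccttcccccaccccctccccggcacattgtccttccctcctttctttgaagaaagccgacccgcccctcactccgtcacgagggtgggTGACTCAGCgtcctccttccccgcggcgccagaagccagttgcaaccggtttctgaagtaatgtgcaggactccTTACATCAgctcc
SLC7A1: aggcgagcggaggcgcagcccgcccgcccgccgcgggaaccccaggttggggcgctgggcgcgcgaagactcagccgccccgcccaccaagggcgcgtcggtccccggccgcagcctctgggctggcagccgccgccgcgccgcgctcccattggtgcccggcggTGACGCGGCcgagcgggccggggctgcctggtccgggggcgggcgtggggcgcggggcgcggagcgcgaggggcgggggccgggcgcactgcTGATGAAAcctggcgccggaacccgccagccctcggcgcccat
SLC1A6: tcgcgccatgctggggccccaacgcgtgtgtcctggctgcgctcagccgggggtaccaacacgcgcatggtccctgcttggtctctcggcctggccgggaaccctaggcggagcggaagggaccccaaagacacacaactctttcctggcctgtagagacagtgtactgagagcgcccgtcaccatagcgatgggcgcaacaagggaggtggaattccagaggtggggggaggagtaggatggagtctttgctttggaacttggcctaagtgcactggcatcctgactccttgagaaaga
SLC7A5 carries CACGTG and TGACNNNGC, SLC3A2 carries TGACNNNGC and TGATGNAA read on the opposite strand, and SLC7A1 carries TGACNNNGC and TGATGNAA. Their GC content is 80.3%, 62.7% and 82.0%, against 61.0% in SLC1A6.

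Upon VprBP knockdown 25 of the 41 transporter genes tested were called (61.0%), where a call means a Benjamini-Hochberg adjusted p under 0.05 in edgeR's quasi-likelihood test and a fold change over 2. Of all 16756 genes tested 46.4% were called. The 14 transporter genes called lower made up 34.1%, against a background of 22.0%, and the 11 called higher made up 26.8%, against 24.5%. The median log2 fold change was -0.41 over the transporter genes and 0.08 over all genes, and the median size of the change was 1.40 and 0.92. Another 10 genes passed the adjusted p at a fold change under 2, 4 of them higher and 6 lower, so 35 of 41 passed the adjusted p, as did 76.4% of all genes. The 3 values of each group did not overlap for 35 genes (85.4%), against 79.5% of all genes. With such a background the sizes and levels are given gene by gene below. Every count by subgroup stands against the same 24.5% called higher and 22.0% called lower over all genes. The other 3 genes were too low to test. SLC3A1 had 4, 0 and 1 counts in Control sh against 5, 0 and 8 in VprBP sh, SLC6A7 had 8, 2 and 4 and 0, 0 and 0, and SLC6A12 had 8, 8 and 9 and 9, 1 and 3. Of the 25 called genes 9 had at most 10 counts in all in one group, 5 of them in VprBP sh and 4 in Control sh, and the other 16 were detected in both. One of the 44 genes, SLC7A6OS, carries the prefix because it lies on the strand opposite SLC7A6 and is no transporter by name. Its level was 546 ± 12.3 and 467 ± 51.1 normalized counts, with a log2 fold change of -0.22 (adjusted p = 0.0986).

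**Figure D1:**
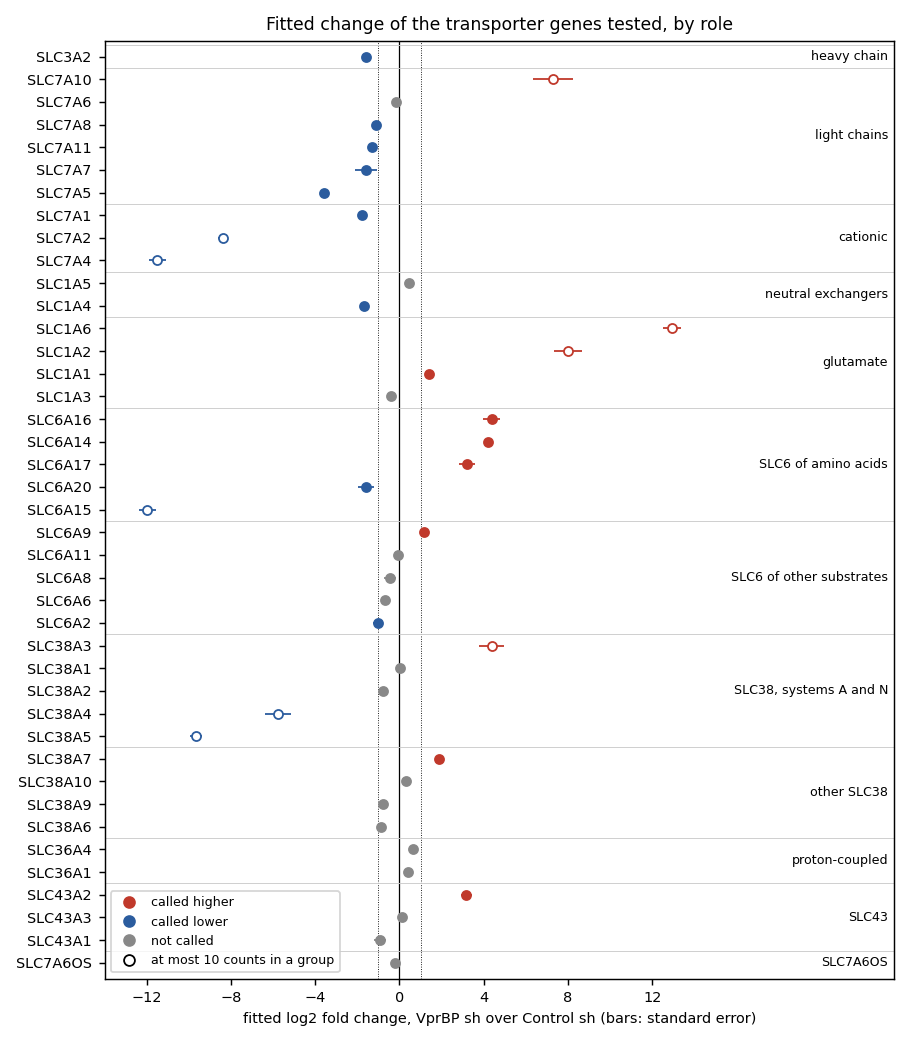
Fitted log2 fold change of VprBP sh over Control sh for each of the 41 transporter genes tested, grouped by role, with standard errors as bars and dotted lines at a 2-fold change. Blue points are the 14 genes called lower, red points the 11 called higher, grey points those not called, and open points are the 9 genes with at most 10 counts in all in one group, whose fitted values depend on the prior count. SLC7A, with its light chains and cationic carriers, lies mostly on the left, and the glutamate carriers mostly on the right.

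The leucine exchanger lost most of its transcript. SLC7A5 (chr16:87830023-87869507), the large neutral amino acid light chain also called LAT1, measured 77242, 80228 and 77818 normalized counts in Control sh against 5659.6, 6993 and 6947 in VprBP sh. Every VprBP sh sample lay more than 10-fold below every Control sh sample. The means were 78429.5 ± 1584 and 6533 ± 757, a 12.0-fold lower level (log2 fold change -3.59, SE 0.11, adjusted p = 4.53e-09). SLC3A2 (chr11:62856004-62888880), the CD98 heavy chain that SLC7A5 needs, measured 17271, 16981 and 16857 in Control sh against 5166, 6092 and 5886 in VprBP sh. It fell 2.98-fold, from 17036 ± 213 to 5715 ± 486 (log2 fold change -1.58, SE 0.09, adjusted p = 1.86e-07), with no overlap between groups. The heavy chain fell less than its most abundant light chain. Per kilobase of exon SLC7A5 stood at 6.18 ± 0.170 times the level of SLC3A2 in Control sh and 1.53 ± 0.0574 times in VprBP sh. With the longest transcript as length these ratios were 2.87 ± 0.0790 and 0.712 ± 0.0267, so which of them was higher in VprBP sh depended on the length used, while the 4.03-fold fall of the ratio does not. The exact two-sided permutation test gave p = 0.1 for this ratio, the smallest p that 3 against 3 samples allow. SLC7A5 overlaps an antisense long noncoding RNA and a microRNA gene, and the labels and methods name different library kits, so reads from the antisense RNA cannot be told apart. Its pseudogene SLC7A5P2 had at most 20 counts in any sample.

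The other light chains detected in both groups moved by less. SLC7A11, the cystine and glutamate exchanger, measured 905, 594 and 608 normalized counts in Control sh against 276, 272 and 294 in VprBP sh, with Control sh replicate 1 above the other two. The fall from 702 ± 176 to 281 ± 11.9 was 2.50-fold (log2 fold change -1.32, SE 0.17, adjusted p = 6.58e-05), and it was -1.10 on the log2 scale without that library. SLC7A8, a light chain for neutral amino acids also called LAT2, measured 355, 440.3 and 437 in Control sh against 201, 191 and 172 in VprBP sh, without overlap. It fell 2.18-fold (log2 fold change -1.13, SE 0.14, adjusted p = 4.25e-05), and with scaling by library size alone the log2 fold change of -0.92 was under 2-fold. SLC7A6, which exchanges cationic for neutral amino acids, was the abundant light chain that was not called, at 1054, 999 and 989 in Control sh against 871, 946 and 856 in VprBP sh. Its log2 fold change was -0.19 (SE 0.09, adjusted p = 0.084), with the opposite sign under scaling by library size alone (0.026). The remaining light chains were low. SLC7A7, with the same kind of exchange, fell from 24, 47 and 46 counts to 24, 9 and 8 (adjusted p = 0.0161), where VprBP sh replicate 1 equalled the lowest Control sh count. SLC7A10, a light chain for small neutral amino acids such as serine, was the exception in direction, with 0 counts in every Control sh sample and 11, 25 and 26 in VprBP sh, at least 6.07-fold higher against a floor of 3 counts per library (adjusted p = 2.15e-04). In all, 4 of 6 light chains were called lower and 1 higher, against 22.0% and 24.5% of all genes tested. SLC7A7 and SLC7A8 are neighbours on chromosome 14, 295 kb apart.

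All 3 genes grouped as cationic amino acid transporters were called lower, against 22.0% of all genes tested. SLC7A1 (chr13:29509414-29595688), the main carrier of arginine and lysine in dividing cells, measured 8807, 6892 and 6667 normalized counts in Control sh against 2175, 2213 and 2189 in VprBP sh. The lowest Control sh value was more than 3 times the highest VprBP sh value, and the means of 7455 ± 1176 and 2192 ± 19.4 gave a call lower (log2 fold change -1.77, SE 0.11, adjusted p = 5.13e-07). SLC7A2, an arginine carrier of liver, muscle and macrophages, had 556, 625 and 753 counts in Control sh against 3, 1 and 2 in VprBP sh (adjusted p = 2.99e-09). The ratio of Control sh to VprBP sh was 359 (95% exact interval 165 to 980.2, which covers counting error only, as do all such intervals here). SLC7A4, a related protein without an established substrate, had 317, 341 and 362 counts in Control sh against 0 counts in all VprBP sh samples, at least 123-fold lower against the floor of 3 counts per library (adjusted p = 1.13e-07). It overlaps another protein-coding gene on the same strand, between which the counting may have divided reads. Summed per kilobase of exon, the 3 genes of this group went from 1203 ± 152 to 285 ± 2.39 normalized counts per kb, and nearly all of what was left was SLC7A1.

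The glutamate carriers went the other way, with 3 of 4 called higher, against 24.5% of all genes tested. SLC1A6 (chr19:14950033-15022990), the glutamate transporter EAAT4 known from cerebellar Purkinje cells, had 2, 0 and 0 counts in Control sh against 4091, 7349 and 9679 in VprBP sh. It went from almost no counts in all 3 Control sh samples to 6541 ± 1713 normalized counts, which made it the fourth most abundant transporter per kilobase of exon in VprBP sh (adjusted p = 8.63e-09). The ratio was 9474 (95% exact interval 2622 to 78235), and both Control sh counts came from replicate 1. The fitted log2 fold change of 12.94 rose to 15.71 without that library and was 12.35 without Control sh replicate 3. SLC1A6 overlaps the protein-coding gene CCDC105 on the opposite strand, and reads from that gene cannot be told apart, as for SLC7A5. SLC1A2, the main glutamate carrier of astrocytes, had 1, 0 and 0 counts in Control sh against 64, 141 and 189 in VprBP sh, a ratio of 353 (95% exact interval 63.1 to 13997, adjusted p = 3.05e-06). Its 1 Control sh count again came from replicate 1, without which the fitted log2 fold change went from 7.99 to 9.97. SLC1A1, the glutamate and cysteine carrier of neurons and epithelia, was present in both groups, at 159, 176 and 160.2 normalized counts in Control sh against 339, 476 and 486 in VprBP sh. It rose 2.63-fold without overlap (log2 fold change 1.40, SE 0.16, adjusted p = 3.18e-05). SLC1A3, also called GLAST, was the exception. Its values of 3315, 3644 and 3795 in Control sh against 3516, 2256 and 2344 in VprBP sh overlapped, since VprBP sh replicate 1 lay between the Control sh samples. Its log2 fold change of -0.41 (SE 0.16, adjusted p = 0.0396) was -0.64 without that library, and its adjusted p was over 0.05 when any other single library was left out. The 4 carriers summed to 211 ± 12.3 normalized counts per kb of exon in Control sh and 1097 ± 213 in VprBP sh, of which SLC1A6 made up 855.

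The neutral exchangers of the same family parted. SLC1A5 (chr19:46774883-46788594), the glutamine carrier also called ASCT2, measured 10856, 10049.8 and 9697 normalized counts in Control sh against 12142, 14434 and 14669 in VprBP sh. The groups did not overlap, and the level was 1.35-fold higher at 10201 ± 594 against 13748 ± 1396 (log2 fold change 0.43, SE 0.10, adjusted p = 0.00236), under the 2-fold limit. SLC1A4, which exchanges alanine, serine and cysteine, measured 1402, 1251 and 1198 in Control sh against 540.4, 316 and 362 in VprBP sh. It fell 3.16-fold (log2 fold change -1.66, SE 0.18, adjusted p = 2.22e-05), with VprBP sh replicate 1 highest of its group but below every Control sh sample. Glutamine uptake by SLC1A5 has been proposed to feed the exchange through SLC7A5, and the genes moved apart here, with SLC7A5 far lower and SLC1A5 somewhat higher.

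**Figure D2:**
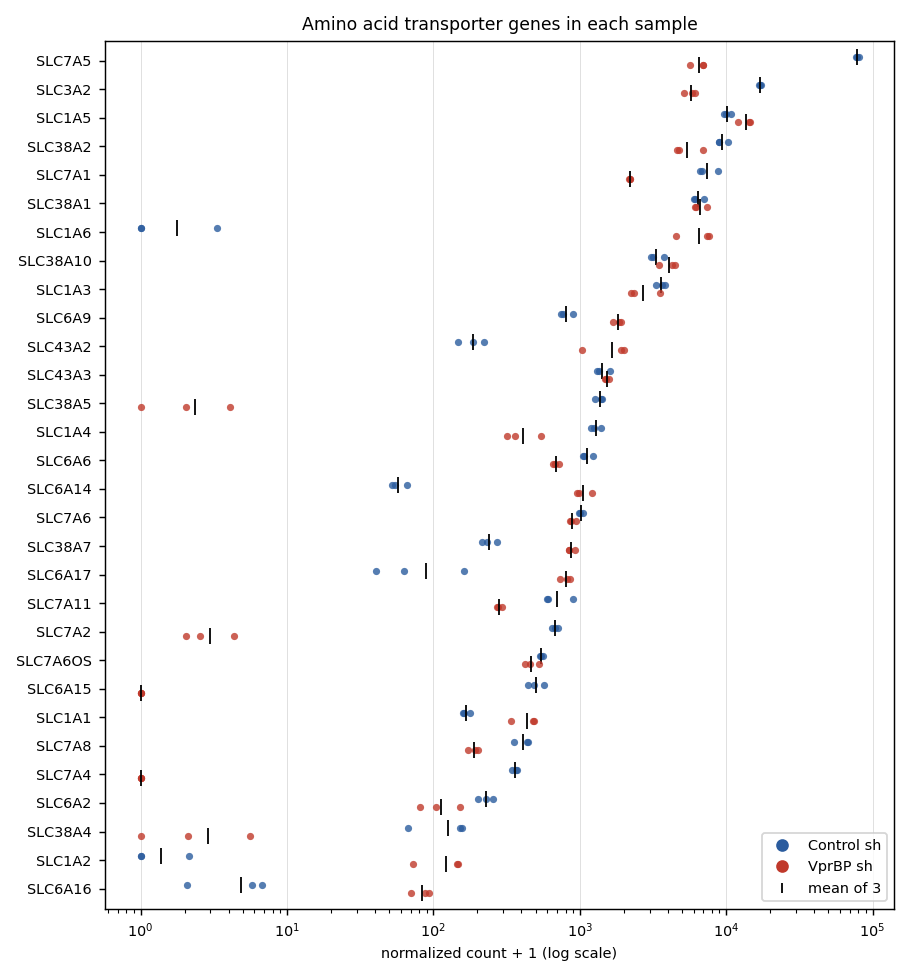
Normalized count + 1 on a log scale in each of the 6 samples for the 30 transporter genes named by rule, ordered by their higher group mean. Blue points are Control sh, red points VprBP sh and black ticks the mean of 3. SLC7A5 lies at 77242 to 80228 in Control sh against 5659.6 to 6993 in VprBP sh, SLC6A15 and SLC7A4 lie at 0 in all VprBP sh samples, and the points of SLC38A1 overlap.

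The 5 tested SLC6 genes grouped as carriers of amino acids were all called, 3 higher and 2 lower, against 24.5% and 22.0% of all genes. This group includes SLC6A16 and leaves out the glycine carrier SLC6A9, which is given with the next group. SLC6A14 (chrX:116436606-116461458), a concentrating carrier of neutral and cationic amino acids, measured 53.3, 65.2 and 51.2 normalized counts in Control sh against 1205, 951 and 992 in VprBP sh. It rose 18.5-fold, from 56.6 ± 7.56 to 1049 ± 136 (log2 fold change 4.21, SE 0.16, adjusted p = 1.50e-08). SLC6A17, a vesicular carrier of neutral amino acids in neurons, measured 162, 62.0 and 39.8 in Control sh against 735, 855 and 822 in VprBP sh, so Control sh replicate 1 lay well above the other Control sh samples and below every VprBP sh sample. It rose 9.13-fold (log2 fold change 3.22, SE 0.38, adjusted p = 3.77e-05), or by 3.99 on the log2 scale without Control sh replicate 1. SLC6A16, whose substrate is not established, had 5, 1 and 5 counts in Control sh against 62, 83 and 121 in VprBP sh, a ratio of 21.7 (95% exact interval 11.9 to 43.99, adjusted p = 6.60e-06). Against these 3, SLC6A15 (chr12:84859491-84913629), a carrier of branched-chain amino acids and proline in neurons, had 380, 525 and 514 counts in Control sh against 0 counts in all VprBP sh samples. That is at least 171-fold lower against the floor of 3 counts per library (adjusted p = 1.25e-07). SLC6A20, a proline carrier, was low throughout and fell from 18, 13 and 18 counts to 6, 6 and 6 (adjusted p = 0.00351). The subgroup summed to 54.7 ± 9.30 normalized counts per kb of exon in Control sh and 376 ± 17.7 in VprBP sh.

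Among the SLC6 genes grouped as carriers of neurotransmitters, glycine included, and of creatine, taurine and betaine, 1 of 5 rose and 1 fell. SLC6A9, the glycine transporter GlyT1, measured 903, 742 and 763 normalized counts in Control sh against 1696, 1851 and 1919 in VprBP sh, without overlap, and rose 2.27-fold (log2 fold change 1.18, SE 0.10, adjusted p = 4.47e-06). SLC6A2, the noradrenaline transporter, measured 201, 255 and 227 in Control sh against 151, 80.0 and 103 in VprBP sh and fell 2.05-fold (log2 fold change -1.04, SE 0.23, adjusted p = 0.00207). Its change lay at the 2-fold limit, and the fold was under 2 without Control sh replicate 2 (-0.95), without VprBP sh replicate 2 (-0.86) or without VprBP sh replicate 3 (-0.99). SLC6A6, the taurine transporter, measured 1237, 1057 and 1068 in Control sh against 659, 717 and 679 in VprBP sh, lower without overlap but under 2-fold (log2 fold change -0.71, SE 0.10, adjusted p = 1.25e-04). SLC6A8, the creatine transporter, and SLC6A11, a GABA transporter, had log2 fold changes of -0.44 and -0.08 (adjusted p = 0.185 and 0.662). For SLC6A8 this came with 766, 337 and 359 normalized counts in Control sh, where replicate 1 alone stood high, against 324, 393 and 360.3.

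Of the SLC38 carriers at the plasma membrane, the abundant pair was not called while 2 less abundant ones fell to a few counts. SLC38A1, a glutamine carrier of system A, measured 7074, 6096 and 6032 normalized counts in Control sh against 7402, 6263 and 6163 in VprBP sh, with overlap. Its log2 fold change of 0.05 (SE 0.10, adjusted p = 0.693) was negative under TMM factors and DESeq2. SLC38A2, the system A carrier that is known to respond to amino acid shortage, measured 10323, 8971 and 8989.6 in Control sh against 6908, 4733 and 4639 in VprBP sh, lower in all 3 VprBP sh samples. The difference of 1.74-fold (log2 fold change -0.80, SE 0.15, adjusted p = 8.62e-04) was under the limit, and it passed 2-fold without VprBP sh replicate 1 (-1.01). SLC38A5, a glutamine, histidine and serine carrier of system N, had 1229, 1287 and 1351 counts in Control sh against 0, 1 and 4 in VprBP sh. The ratio was 862 (95% exact interval 369 to 2656, adjusted p = 3.31e-09), and the fitted log2 fold change went from -9.65 to -11.00 without VprBP sh replicate 3. SLC38A4, a system A carrier of liver, had 57, 139 and 164 counts in Control sh, lowest in replicate 1, and 1, 0 and 6 in VprBP sh. That ratio was 57.3 (95% exact interval 27.5 to 144, adjusted p = 1.87e-05), and the fitted log2 fold change went from -5.76 to -7.54 without VprBP sh replicate 3. SLC38A3, a system N glutamine carrier of liver and kidney, rose from 2, 2 and 0 counts to 19, 38 and 45 (ratio 22.9, 95% exact interval 8.67 to 85.6, adjusted p = 1.11e-04). SLC38A1, SLC38A2 and SLC38A4 lie in a row on chromosome 12, with gaps of 88.2 kb and 391.99 kb, and their log2 fold changes of 0.05, -0.80 and -5.76 show no common size.

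Of the remaining SLC38 and SLC36 carriers, several of them lysosomal, 1 of 6 was called. It was SLC38A7, a lysosomal glutamine exporter, at 271, 215 and 232 normalized counts in Control sh against 841, 926 and 849 in VprBP sh. It rose 3.64-fold without overlap (log2 fold change 1.86, SE 0.12, adjusted p = 5.23e-07). SLC38A9, the lysosomal arginine sensor, had a lower mean at 362 ± 15.3 and 211 ± 30.9 normalized counts but stayed under 2-fold (log2 fold change -0.78, SE 0.14, adjusted p = 5.17e-04). So did SLC38A6, less well studied, with a log2 fold change of -0.87 (adjusted p = 0.00334). SLC38A10 was abundant at 3748, 3175 and 3068 in Control sh against 3472, 4504 and 4248 in VprBP sh, with overlap and a log2 fold change of 0.29 (adjusted p = 0.0453). The proton-coupled SLC36A1, which exports small neutral amino acids from lysosomes, and SLC36A4 had log2 fold changes of 0.42 and 0.64 (adjusted p = 0.00827 and 0.00164), both under 2-fold and neither with overlap.

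Of the SLC43 carriers, SLC43A2 rose. SLC43A2 (chr17:1569268-1628886), a facilitative carrier of large neutral amino acids also called LAT4, measured 223, 186 and 147 normalized counts in Control sh against 1041, 2011 and 1913 in VprBP sh. VprBP sh replicate 1 was lowest of its group and still over 4 times the highest Control sh value. The mean rose 8.94-fold, from 185 ± 37.8 to 1655 ± 534 (log2 fold change 3.17, SE 0.26, adjusted p = 3.02e-06). SLC43A1, the related carrier LAT3, had 138, 79 and 101 counts in Control sh against 37, 61 and 94 in VprBP sh (log2 fold change -0.93, adjusted p = 0.017), lower but under 2-fold. SLC43A3, a purine nucleobase carrier 57.0 kb from SLC43A1, measured 1603, 1354 and 1305 in Control sh against 1577, 1481 and 1512 in VprBP sh and overlapped (log2 fold change 0.10, adjusted p = 0.366), with a negative sign under DESeq2. It shares its strand with an overlapping protein-coding gene, between which reads may have been divided. SLC7A5 and SLC43A2 both carry large neutral amino acids, and per kilobase of exon SLC43A2 went from 17.5 ± 3.56 to 156 ± 50.4 normalized counts while SLC7A5 went from 16463 ± 332 to 1371 ± 159.

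Levels between genes were compared as normalized counts per kilobase of all exons of a gene joined. In Control sh SLC7A5 led at 16463 ± 332 per kb, followed by SLC1A5 at 3061 ± 178, SLC3A2 at 2665 ± 33.3, SLC38A2 at 1448 ± 119 and SLC7A1 at 970 ± 153. In VprBP sh SLC1A5 led at 4126 ± 419, followed by SLC7A5 at 1371 ± 159, SLC3A2 at 894 ± 76.1, SLC1A6 at 855 ± 224 and SLC38A2 at 834 ± 197. Among SLC3A2, SLC1A6 and SLC38A2 the VprBP sh samples overlapped, and at every other step between these neighbours the 3 values did not overlap. The order depended on the length used. With the longest transcript SLC3A2 stood above SLC1A5 in Control sh (5992 ± 74.8 against 3539.5 ± 206 per kb) and above SLC7A5 in VprBP sh (2010.1 ± 171 against 1434 ± 166). With the coding sequence SLC3A2 was again above SLC1A5 in Control sh (6974 ± 87.1 against 5836 ± 340), and it was sixth in VprBP sh at 2339 ± 199. SLC7A5 led in Control sh and SLC1A5 in VprBP sh by all 3 lengths. By exon length SLC1A6 went from rank 41 of 43 to rank 4 and SLC7A1 from rank 5 to rank 10. SLC7A5 alone made up 58.8% ± 1.79 of the summed level in Control sh and 11.6% ± 0.687 in VprBP sh, and SLC1A5 made up 10.9% ± 0.414 and 35.0% ± 1.59. The summed level of the transporters was 28004 ± 616 per kb in Control sh and 11753 ± 695 in VprBP sh, 2.38-fold lower. Without SLC7A5 the sums were 11542 ± 719 and 10382 ± 536, 1.11-fold lower, so most of the loss in the sum was SLC7A5. Both differences had an exact two-sided permutation p of 0.1, the smallest possible here. In raw terms, the 44 genes held 0.619% to 0.637% of each Control sh library against 0.314% to 0.336% of each VprBP sh library.

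**Figure D3:**
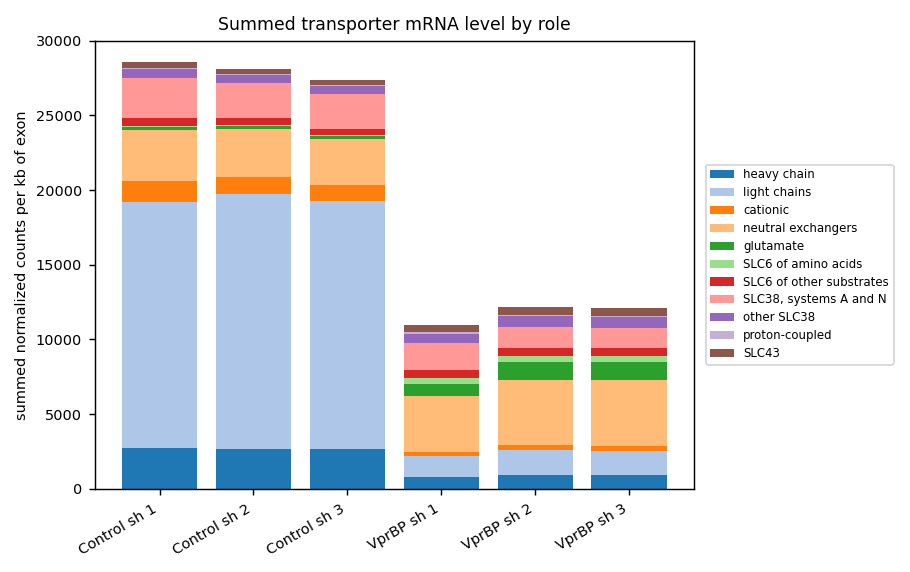
Summed level of the transporter genes in each sample, in normalized counts per kb of exon, stacked by role from the heavy chain at the bottom to SLC43 at the top. The sum is 27351 to 28574 in Control sh against 10951 to 12190 in VprBP sh, and the light chain block, which is nearly all SLC7A5, shrinks from 16745 ± 325 to 1558 ± 160.

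The promoter elements searched in the windows above were counted over the genes by call, with no test. The genes called lower without a window searched were SLC7A2, SLC7A4, SLC7A11, SLC6A2 and SLC6A15. Those called higher without one were SLC1A2 and SLC38A3. TGATGNAA was in 3 of 9 genes called lower that had a window (SLC1A4, SLC3A2 and SLC7A1), in 0 of 9 called higher and in 3 of 14 not called (SLC1A3, SLC1A5 and SLC38A1). It is found in a window of 4.46% of all 27305 genes with one, and in 3.62% of all 35116 windows. CACGTG was in 4 of 9 genes called lower (SLC38A5, SLC7A5, SLC7A7 and SLC7A8), 2 of 9 called higher (SLC38A7 and SLC6A16) and 3 of 14 not called. It is found in 8.77% of all genes and 7.26% of all windows. TGACNNNGC was in 4 of 9 called lower (SLC3A2, SLC7A1, SLC7A5 and SLC7A7), 0 of 9 called higher and 3 of 14 not called. It is found in 16.1% of all genes and 13.3% of all windows. A gene was counted if any of its windows matched, so genes with more windows had more chances to match. A match is a string of letters in a window and not a site shown to be bound, and the missing matches say nothing of the factors.

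Genes that sense or use amino acids were read out from 5 lists for context. Of 32 tested genes of the integrated stress response, in which ATF4 switches on amino acid synthesis and uptake genes, 9 rose and 6 fell. The 46.9% called is near the 46.4% of all genes, and the median log2 fold change was 0.09 against 0.08. NUPR1, a stress-induced chromatin protein, rose from 2, 3 and 0 counts to 1554, 2156 and 2758 (ratio 1161, 95% exact interval 497 to 3576), and CBS, which makes cystathionine from homocysteine and serine, rose from 4.52 ± 5.16 to 592 ± 82.7 normalized counts. DDIT4, an inhibitor of mTORC1, fell from 9397 ± 734 to 2779 ± 1114, and EIF2AK4, the kinase GCN2 that senses uncharged tRNA, fell from 3033 ± 18.5 to 906 ± 33.3. ATF4 itself, named after its values were seen, measured 3182, 3663 and 3553 normalized counts in Control sh against 15348, 14775 and 14940.4 in VprBP sh, a 4.33-fold rise (log2 fold change 2.12, SE 0.08, adjusted p = 2.40e-08).

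Of 22 tested enzymes of glutamine, glutamate, aspartate and branched-chain amino acid metabolism, 8 rose and 2 fell (45.5% called, near the 46.4% of all genes, with a median of 0.52 against 0.08). PRODH, which oxidizes proline, rose from 50.4 ± 5.39 to 6049.7 ± 416 normalized counts (log2 fold change 6.90, SE 0.12, adjusted p = 3.77e-10), and BCKDHB, a subunit of the branched-chain ketoacid dehydrogenase, rose from 265 ± 12.5 to 968 ± 65.0. BCAT1, the cytosolic branched-chain aminotransferase, fell from 1743, 1665 and 1953 counts to 0 in every VprBP sh sample, at least 648-fold against the floor (adjusted p = 8.32e-09). The other gene that fell was IDO1, which degrades tryptophan and was named after its values were seen. Of 36 tested genes of lysosomal amino acid sensing by mTORC1, 5 rose and 2 fell (19.4% called against 46.4% of all genes, median 0.36). Among them CASTOR2 and WDR59, parts of the arginine-sensing and GATOR complexes, rose with log2 fold changes of 1.11 and 1.06. The other CASTOR gene listed, CASTOR1, went the other way under 2-fold (log2 fold change -0.78, adjusted p = 0.0144) and was named after its values were seen. TFE3, a lysosomal transcription factor, fell by just over 2-fold. Without VprBP sh replicate 1 the genes that rose numbered 3, and without VprBP sh replicate 3 the genes that fell numbered 1.

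Of 14 tested amino acid carriers of other families, 3 rose and 2 fell (35.7% called against 46.4% of all genes, median 0.26), and 1 fell without Control sh replicate 1. SLC25A29, a mitochondrial carrier of basic amino acids, rose (log2 fold change 1.94), and SLC25A22, a mitochondrial glutamate carrier, and MFSD12, a lysosomal and melanosomal cysteine carrier, fell (-1.19 and -1.09). Of 14 tested partners and regulators of the transporters, 3 rose and 6 fell (64.3% called against 46.4% of all genes, median -0.63). TXNIP, an arrestin that lowers glucose uptake, fell from 3277, 1622 and 1853 counts, highest in replicate 1, to 0 in every VprBP sh sample, at least 835-fold (adjusted p = 2.10e-06). NEDD4, a ubiquitin ligase of membrane proteins, fell from 2277 ± 94.8 to 977 ± 85.4 normalized counts. ARRDC3, a related arrestin, rose from 162 ± 29.2 to 639 ± 84.5, and KEAP1, the inhibitor of the antioxidant factor NRF2, rose from 1499 ± 65.1 to 5095 ± 461. CLTRN, which brings SLC6 carriers to the surface of kidney cells, fell with a log2 fold change of -3.34 and was named after its values were seen.

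**Figure D4:**
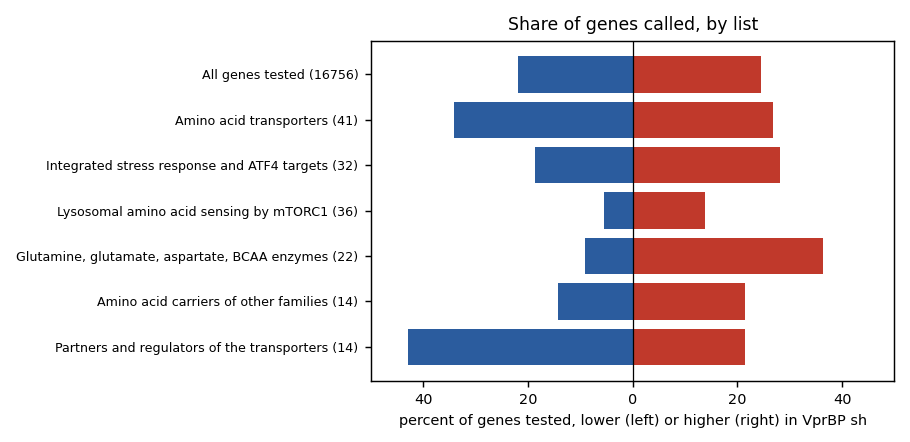
Percent of tested genes called lower (blue, left) and higher (red, right) upon VprBP knockdown in each list, with the number tested in parentheses and all 16756 genes as the first bar. The transporters stand at 34.1% lower and 26.8% higher, and the mTORC1 sensing list has the shortest bars.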

How the data were processed

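The RNA-seq data cover 3 Control sh and 3 VprBP sh samples, grouped and numbered by their titles. Per the study's methods, the authors sequenced single-end reads of 50 bases, aligned them to hg38 with STAR and quantified them per gene in Partek Flow, which the submitters' processing notes also name. The deposited values are estimated counts, neither normalized nor pooled, of which 59.8% are whole numbers, and they were rounded to whole counts before any test. The labels name a SMARTER kit and the methods a strand-specific KAPA kit. The end of each gene was taken as the base before the deposited stop, which is the GENCODE 44 end for 20506 of the 21494 genes. The 60 names in GENCODE 44 that match the rule include 16 not analysed here. Of the 44 genes 35 overlap another gene and 15 a protein-coding gene. Since the kits named differ, reads from an overlapping gene on the opposite strand cannot be told apart for any of them.

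All 6 samples entered one fit in edgeR 4.0.16 (R 4.3.3), scaled by upper quartile factors (quantile 0.75). Genes with low counts were removed by filterByExpr (minimum count 10), and the 16756 left were tested by quasi-likelihood in place of Partek Flow's own algorithm. The standard error is the log2 fold change over the square root of F, and normalized counts are counts over the scaled library size. The study's 2-fold limit was kept. The detection floor of 3 counts equals 2.30 to 3.48 normalized counts. Ratios with few counts in a group have exact Clopper-Pearson intervals. Levels used exon unions of GENCODE 44, and promoters came from RefSeq (GRCh38.p14).

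The transporter genes and lists were chosen with earlier results of these data known. Named with all values were tested transporter genes whose higher group averaged 500 normalized counts or more, called ones averaging 50 or more, and DCAF1. From each list at most the 2 largest called changes each way above the same 500 normalized counts were named. All other named genes, among them SLC7A7, SLC7A10, SLC6A20, SLC6A8, SLC6A11, SLC38A3, SLC38A6, SLC38A9, SLC36A1, SLC36A4 and SLC43A1, were named after their values were seen. The alternatives were TMM factors, library size alone, DESeq2 1.42.0, limma-voom (limma 3.58.1), other filters, the replicate number as a block, glmTreat against a 2-fold change, each sample left out, replicates 2 and 3 summed, and other gene lengths. On simulated counts for 16303 genes with 200 changed by 2 on the log2 scale, edgeR recovered 97% with 2 false calls. In these data 46.4% of the genes tested were called, a far larger share than was changed there. The rates from the simulation therefore do not carry over.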

Additional observations from a re-analysis of the deposited data

How the results depend on the processing

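None of the 21 called transporter genes named by rule changed direction under the 15 alternatives, and 19 of them kept their call wherever they were tested, the exceptions being SLC6A2 and SLC7A8. The log2 fold change of SLC38A1 turned negative with TMM factors (-0.052), DESeq2 (-0.073), without Control sh replicate 3 (-4.37e-05) and without VprBP sh replicate 1 (-0.045; up to 0.12 with another sample left out), that of SLC43A3 turned negative with DESeq2 (-0.018), and that of SLC7A6 turned positive with library size alone (0.026). None of these 3 genes was called. The median over all genes was 0.29 with library size alone, -0.01 with TMM factors and -0.04 with DESeq2, against 0.08, and the median over the transporters stayed negative, from -0.54 to -0.19. When each of the 6 samples had to hold at least 10 counts, genes at 0 in a group were removed. Then 6 transporters were called higher and 7 lower, as were 2694 and 1996 of 13103 genes. The number of transporters left under this filter is not given, so their share cannot be set against that of all genes. Of 18 enzymes tested 0 were called lower, and of 10 partners tested 3 were called lower. Leaving out 1 sample gave 11 transporters higher each time and 12 to 15 lower, and 1 to 2 carriers of other families lower. It gave 3 to 6 mTORC1 sensing genes higher and 1 to 3 lower. Those fits tested 17197 to 17323 genes. Except for the replicate block, the share called over all genes is not given for these fits or those below. Their counts therefore have no background beside them. The carriers called lower were 0 with library size alone and 1 in the test against a 2-fold change. The mTORC1 genes called higher were 3 with TMM factors, 2 with DESeq2 and 2 in the test against a 2-fold change, and those called lower were 4 with DESeq2 and 1 with library size alone, limma-voom, the filter of 10 counts, the test against a 2-fold change or the replicate block.

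Same-numbered samples had correlations of -0.19 to -0.06 between their deviations over 12364 genes, and differently numbered samples had -0.16 to 0.19. The ranges overlap, and the deviations within a group of so few samples are not independent of each other. These values therefore cannot tell whether the replicate numbers pair the samples. With the replicate block the 11 and 14 calls were the same genes, and over all genes 4031 and 3655 were called.

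With the longest transcript as length SLC7A5 made up 49.4% of the summed level in Control sh and 8.57% in VprBP sh, SLC3A2 17.2% and 12.0%, and SLC1A5 10.1% and 28.5%. With the coding sequence SLC3A2 made up 7.91% and 6.42% and SLC1A5 6.61% and 21.6%. The order of SLC3A2 against SLC1A5 and SLC7A5 changed with these lengths, as given above. At this depth a gene with 0 counts in a library could hold up to the floor of 3 counts.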
